A study of Mus musculus with 8 samples.

Results

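Imprinted genes are genes of which mainly the maternal or mainly the paternal copy is transcribed, and 10 of them were followed on these arrays. They were Kcnq1ot1, Cdkn1c, Phlda2, Igf2, H19, Meg3, Peg3, Grb10, Igf2r and Plagl1, found as every spot whose gene name in the array files was one of these symbols. This gave 23 probes of the 55698 on the array and 10 of 34834 gene names. Kcnq1ot1 was picked because its signal was higher after 2 h of SEMA3E, so that difference is given as a description with no test. The other 9 genes were taken for their imprinting, with earlier results of these data known.

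The study used B16, a pigmented mouse melanoma cell line, grown in high-glucose DMEM with 5% fetal bovine serum. SEMA3E is a secreted semaphorin, and the series title names PLXND1, its receptor, while cytochalasin D is a drug that caps growing actin filaments. Each of 4 groups had 2 biological replicates, per the labels, with 1 array for each: control cells labelled 0 h (called non targeted in the labels), cells given SEMA3E for 2 h, cells given SEMA3E for 8 h, and cells given cytochalasin D for 8 h. Doses and any vehicle were not given in the sources used here. No control array was labelled 2 h or 8 h, so time in culture and treatment cannot be told apart. The 8 arrays shared 1 slide, and the 2 arrays of a group sat side by side, which means that slide position cannot be told apart from group either.

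Such genes lie in clusters, and each cluster is governed by a control region that carries DNA methylation on the maternal or the paternal chromosome only. Kcnq1ot1 is a long non-coding RNA transcribed antisense to Kcnq1 from the paternal chromosome 7, where it keeps neighbouring genes, among them Cdkn1c and Phlda2, silent in cis. H19 and Igf2 form the adjoining cluster on chromosome 7, with H19 transcribed from the maternal and Igf2 from the paternal chromosome. Imprinted genes are best known for setting fetal and placental growth, and many are turned down in most adult tissues.

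Kcnq1ot1 and H19 were read by several probes that did not behave alike, and the probes on which the results turn are shown here 5′ to 3′, as the array files give them. The capitals in the first mark the run of A with which it ends; no other letters are marked. The first was the only Kcnq1ot1 probe with a measurable signal, the second was not above background on any array, the third was the brightest H19 probe and the last is an H19 probe that lit up on 1 array.
Kcnq1ot1, detected probe: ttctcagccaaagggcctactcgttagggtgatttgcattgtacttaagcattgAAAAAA
Kcnq1ot1, other probe: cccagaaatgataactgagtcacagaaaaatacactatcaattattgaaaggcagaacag
H19, tested probe: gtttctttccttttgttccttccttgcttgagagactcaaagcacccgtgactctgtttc
H19, probe above background on 1 array: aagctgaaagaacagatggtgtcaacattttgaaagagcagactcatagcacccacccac
Both Kcnq1ot1 probes are 60 bases long, with a GC content of 40% for the first and 35% for the second. The files describe the tested H19 probe by the locus chr7:149761435-149764019 on the reverse strand of mm9 and give no position within Kcnq1ot1 for either of its probes.

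The arrays differed in brightness. The 75th percentile of the processed signal, taken over the 18687 probes that passed the background mark on every array, was 2768 and 2303 on the control arrays, 1196 and 1167 at SEMA3E 2 h, 2723 and 2252 at SEMA3E 8 h and 2048 and 1410 after cytochalasin D. Levels below are therefore log2 signals minus this percentile of their own array, so that 0 is the percentile and a difference of 1 is 2-fold. Spots well above background made up 37.8% to 48.2% of each array. The 2 arrays of a group correlated at r = 0.969 to 0.982 over tested probes, and 5 of 8 arrays were nearer to an array of another group than to their own replicate. The 7 melanocyte markers (Mitf, Dct, Tyr, Tyrp1, Pmel, Mlana and Sox10) were above background on all 8 arrays, as were 2 of 6 fibroblast, 0 of 4 keratinocyte, 3 of 5 macrophage and leukocyte and 2 of 3 endothelial markers. In RNA from whole cultures, fewer cells carrying a transcript and less of it per cell cannot be told apart.

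Most of the imprinted genes were faint or not detected in B16 cells. Of the 23 probes, 6 were well above background on all 8 arrays, and they belonged to Kcnq1ot1, Igf2r and Plagl1. Another 13 were above background on no array, and 4 genes, Igf2, Meg3, Peg3 and Grb10, had no probe above it anywhere. These 13 probes had signals of 1.28 to 20.6, and 11 of them were brightest on the second SEMA3E 8 h array, off which none passed 10.8. That array also had the highest raw signal on negative control spots, with a median of 51.3 against 27.9 to 32.2 on the other 7 arrays. A probe was tested when it was well above background on both arrays of at least 1 group, which 9 probes of 6 genes were.

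**Figure D1:**
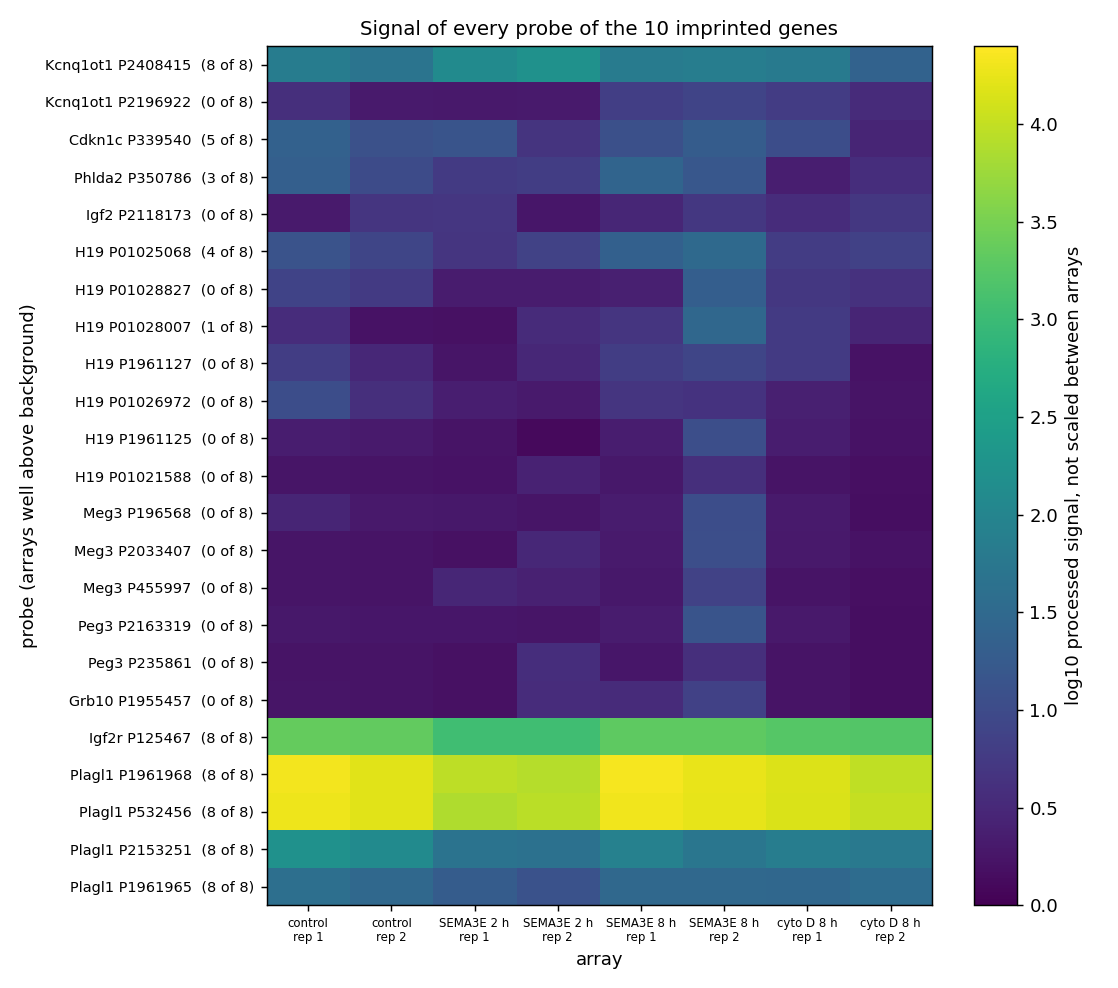
Processed signal, not scaled between arrays and shown as log10 by colour, for the 23 probes of the 10 genes (rows, with the number of arrays out of 8 on which each was well above background) on the 8 arrays (columns). Igf2r and 2 Plagl1 probes are bright throughout, Kcnq1ot1 is brightest on the SEMA3E 2 h arrays, and most H19, Meg3, Peg3 and Grb10 rows are dark except on the second SEMA3E 8 h array.

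Kcnq1ot1 was higher on both SEMA3E 2 h arrays than on the other 6. The unscaled signal of its detected probe (GT_EA848_A_55_P2408415) was 71.7 and 49.5 in control cells, 129 and 167 at SEMA3E 2 h, 67.8 and 73.9 at SEMA3E 8 h, and 63.6 and 24.0 after cytochalasin D. It was thus highest on the 2 dimmest arrays of the slide. Without scaling the SEMA3E 2 h arrays were 1.30 above control on the log2 scale, and the shift of the percentile added 1.1.

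On the scaled log2 level, Kcnq1ot1 stood at -5.27 and -5.54 in control cells, -3.21 and -2.80 at SEMA3E 2 h, -5.33 and -4.93 at SEMA3E 8 h, and -5.01 and -5.87 after cytochalasin D. The group means, in order, were -3.0 ± 0.29 at SEMA3E 2 h, -5.13 ± 0.28 at SEMA3E 8 h, -5.41 ± 0.19 in control cells and -5.44 ± 0.61 after cytochalasin D (SD, n = 2 each). The last 3 groups overlapped, and their means lay within the spread of the cytochalasin D arrays. The difference between SEMA3E 2 h and control was 2.4 ± 0.37 (SE), or 5.28-fold. At SEMA3E 8 h the difference from control was 0.28 ± 0.37, and after cytochalasin D it was -0.04 ± 0.37. These comparisons share the 2 control arrays, and the difference of -2.12 ± 0.37 between SEMA3E 8 h and 2 h shares the arrays that chose the gene, so none of them is tested. Cytochalasin D against SEMA3E 8 h shares neither, and there the difference of -0.31 ± 0.37 did not pass the test (adjusted p = 0.75), with a 95% interval of -1.18 to 0.55.

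The other Kcnq1ot1 probe gave unscaled signals of 3.93 and 2.09 in control cells, 2.00 and 2.08 at SEMA3E 2 h, 6.59 and 7.99 at SEMA3E 8 h, and 6.14 and 3.43 after cytochalasin D. It was above background on none of these arrays, so the higher signal at SEMA3E 2 h rests on 1 probe.

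**Figure D2:**
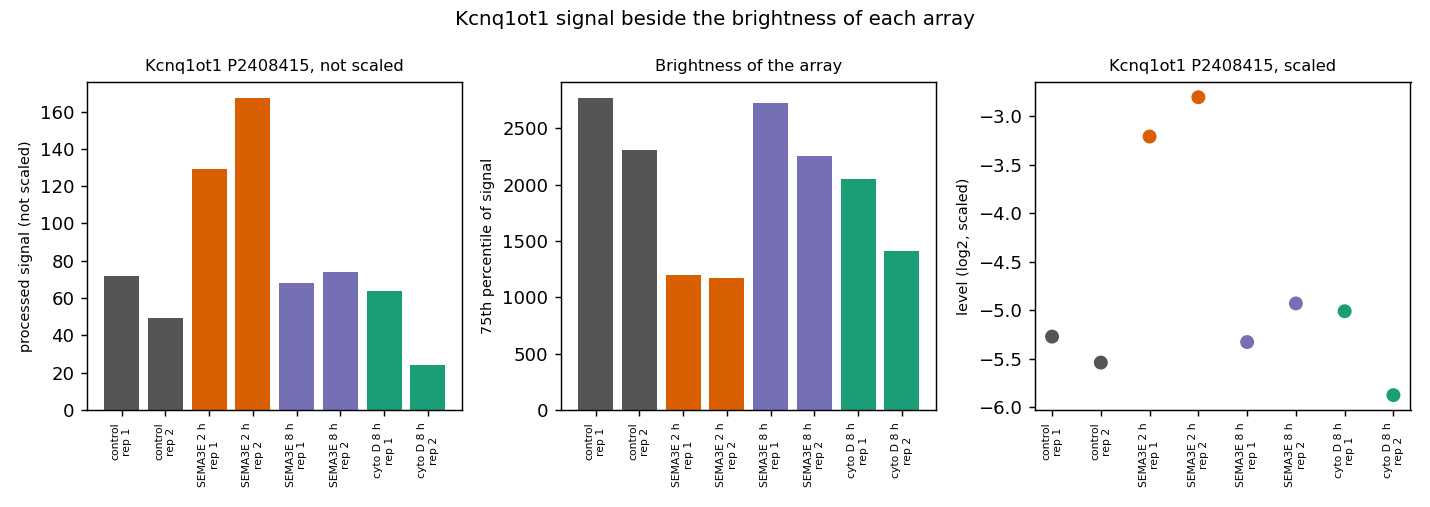
The detected Kcnq1ot1 probe on each of the 8 arrays as unscaled processed signal (left, bars), the 75th percentile of signal that measures the brightness of each array (middle, bars) and the scaled level in log2 (right, points), coloured by group. The SEMA3E 2 h arrays have the highest Kcnq1ot1 signals, 129 and 167, and the lowest percentiles, 1196 and 1167.

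Among the tested genes with a current symbol whose levels followed Kcnq1ot1 most closely over the 8 arrays were Pak1ip1 (Pearson r = 0.986), 1190007I07Rik (0.967), Rps16 (0.966) and Rpl10 (0.966). The values share arrays and scaling, and the 2 SEMA3E 2 h arrays stand apart from the other 6 in each. Pak1ip1, which encodes a protein that binds the kinase PAK1, was at 2.12 and 1.97 in control cells, 2.59 and 2.59 at SEMA3E 2 h, 2.09 and 2.16 at SEMA3E 8 h, and 2.19 and 1.90 after cytochalasin D. Its range was thus much narrower than that of Kcnq1ot1.

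Cdkn1c and Phlda2, the protein-coding genes of the Kcnq1ot1 domain among the 10, were at the edge of detection. Cdkn1c, the cyclin-dependent kinase inhibitor p57, had levels of -6.88 and -7.57 in control cells, -6.42 and -7.97 at SEMA3E 2 h, -7.84 and -6.87 at SEMA3E 8 h, and -7.56 and -8.96 after cytochalasin D. All 4 groups overlapped. Cdkn1c was well above background on both control arrays and on 1 array of each other group. It thus passed the filter through control alone. Its difference between SEMA3E 2 h and control was 0.03 ± 0.67, with a 95% interval of -1.56 to 1.61. At this faint signal, any difference within that interval is compatible with these data. After cytochalasin D the difference from control was -1.04 ± 0.67 (adjusted p = 1.0).

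Phlda2, a pleckstrin homology domain protein that limits placental growth in mice, had unscaled signals of 21.2 and 10.2 in control cells, 5.65 and 6.20 at SEMA3E 2 h, 26.7 and 15.7 at SEMA3E 8 h, and 2.33 and 3.79 after cytochalasin D. It was well above background on both control arrays and 1 SEMA3E 8 h array, and on no SEMA3E 2 h or cytochalasin D array. Phlda2 thus passed the filter through control alone, which favours levels below control elsewhere. Both cytochalasin D arrays lay below all 6 others on the scaled level, at -9.78 and -8.54. Counted against the lowest signal that is well above background, Phlda2 was 1.25-fold lower after cytochalasin D than in control cells (fitted difference -1.74 ± 0.47, adjusted p = 1.0). On that count it was 1.77-fold lower than at SEMA3E 8 h (-2.24 ± 0.47, adjusted p = 0.400). Neither passed the test, and with the normexp background correction both turned, to 0.30 and 0.13. At SEMA3E 2 h the difference from control was -0.22 ± 0.47 (adjusted p = 0.884).

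H19, a long non-coding RNA and the host of miR-675, was read by 7 probes, of which 1 could be tested. That probe (GT_EA848_A_30_P01025068) had unscaled signals of 13.2 and 8.23 in control cells, 4.75 and 7.43 at SEMA3E 2 h, 21.9 and 31.9 at SEMA3E 8 h, and 6.02 and 7.11 after cytochalasin D. It was well above background on both control and both SEMA3E 8 h arrays and on none of the other 4. The scaled levels at SEMA3E 8 h, -6.96 and -6.14, lay above all 6 others, which ran from -8.41 to -7.30. The difference from control was 1.37 ± 0.43 (adjusted p = 0.696), with a 95% interval of 0.35 to 2.39 that is not adjusted for the number of probes. Counted against the lowest signal that is well above background, H19 was 1.65-fold higher at SEMA3E 8 h than at 2 h (fitted difference 1.09 ± 0.43, adjusted p = 0.404). On that count it was 2.28-fold lower after cytochalasin D than at SEMA3E 8 h (-1.47 ± 0.43, adjusted p = 0.400). Normexp turned the fitted difference between SEMA3E 8 h and 2 h to -0.59, and that between cytochalasin D and SEMA3E 8 h to 0.12. None of these passed the test, and the difference from control was 0.96 without the second SEMA3E 8 h array, the one with the brighter negative controls, and 0.33 with normexp. Among the other 6 H19 probes, 5 were above background on no array.

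Igf2, the fetal growth factor of the same cluster, had 1 probe, with signals of 1.85 to 5.21, and was not above background. The same held for the 3 probes of Meg3, a maternally transcribed long non-coding RNA on chromosome 12, with signals of 1.48 to 11.2, and for the single probe of Grb10, an adaptor that dampens insulin and insulin-like growth factor receptors, with signals of 1.48 to 7.12. No difference can be given for these genes.

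Igf2r, the mannose 6-phosphate receptor that carries IGF2 to lysosomes, was bright on all 8 arrays. Its scaled levels were -0.25 and -0.04 in control cells, -0.11 and -0.06 at SEMA3E 2 h, -0.41 and -0.12 at SEMA3E 8 h, and -0.25 and 0.22 after cytochalasin D. All treated groups overlapped the control arrays. The differences from control were 0.06 at SEMA3E 2 h, with a 95% interval of -0.61 to 0.73, then -0.12 at SEMA3E 8 h and 0.13 after cytochalasin D, each ± 0.29 (adjusted p = 0.954, 0.969 and 1.0). Scaling to the median of all probes turned the first to -0.53, where the median of all tested probes was -0.56, and the third to -0.05. Igf2r lies on chromosome 17 and is transcribed mainly from the maternal copy in most mouse tissues, where the antisense RNA Airn silences the paternal one.

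Among the zinc finger factors, Peg3, a paternally transcribed gene on chromosome 7, had 2 probes with signals of 1.47 to 13.7 and was above background on no array. Plagl1, which can arrest the cell cycle and regulates other imprinted genes, was detected throughout. All 4 of its probes were above background on all 8 arrays. The brightest had unscaled signals of 8124 to 21509 and scaled levels of 2.90 and 2.81 in control cells, 2.93 and 2.80 at SEMA3E 2 h, 2.98 and 2.99 at SEMA3E 8 h, and 2.84 and 2.77 after cytochalasin D. Its difference between SEMA3E 2 h and control was 0.01 ± 0.25, with a 95% interval of -0.57 to 0.58. Both SEMA3E 8 h arrays lay above both control arrays, by 0.13 ± 0.25 (adjusted p = 0.961), a difference that turned to -0.0093 with normexp. The second bright probe was at 2.79 and 2.79, 2.68 and 2.93, 2.92 and 2.91, and 2.78 and 2.85 in the same order of groups. These 2 probes overlap over 48 of 60 bases with 2 mismatches, so they are not independent readings. The longest stretch they share, shown because it is what both read, has 26 bases.
Plagl1, stretch shared by both bright probes: atctcctaacctttgatgactctgta

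The third Plagl1 probe (GT_EA848_A_55_P2153251) gave another picture. Its unscaled signals were 171 and 130 in control cells, 46.9 and 43.7 at SEMA3E 2 h, 84.2 and 53.1 at SEMA3E 8 h, and 73.8 and 59.5 after cytochalasin D. The scaled levels of -4.02 and -4.15 in control cells lay above all 6 treated arrays, which ran from -5.41 to -4.57. The differences from control were -0.62 at SEMA3E 2 h (adjusted p = 0.529), -1.13 at SEMA3E 8 h (adjusted p = 0.647) and -0.60 after cytochalasin D (adjusted p = 1.0), each ± 0.27, and none passed the test. The probe was singled out after its values were seen, and since the 3 comparisons share the control arrays their common direction is not 3 separate observations. The remaining Plagl1 probe was at -6.10 and -6.25 in control cells and from -6.53 to -5.29 on the treated arrays, with every group overlapping control. Which Plagl1 transcripts these 2 dimmer probes read was not analysed here.

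**Figure D3:**
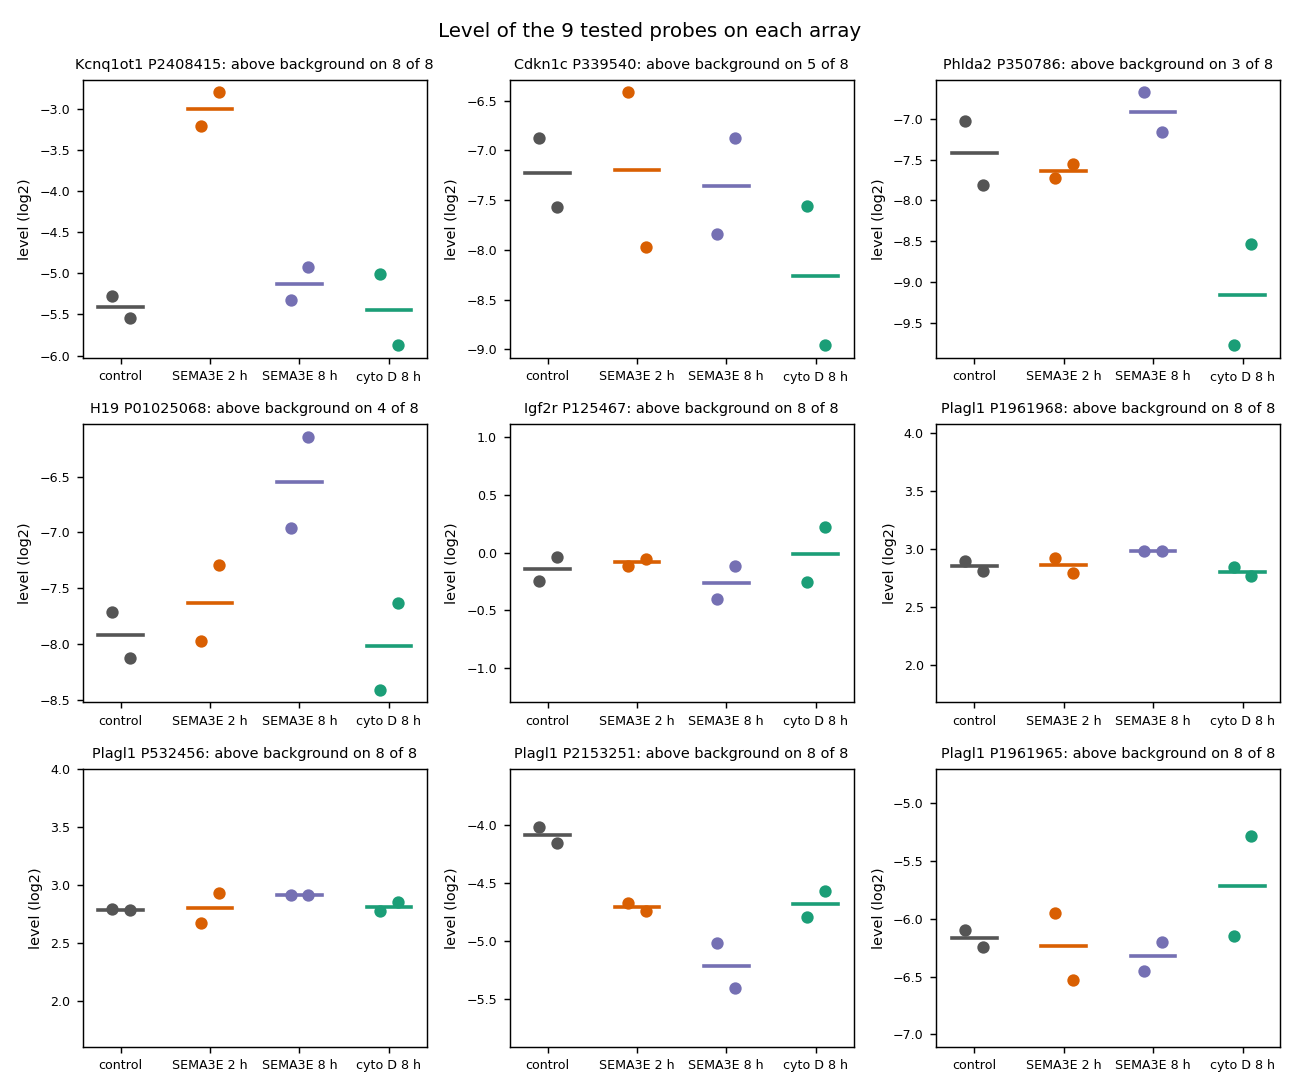
Scaled level in log2 on each array (points, 2 per group) and the group mean (lines) for the 9 tested probes, each panel with its own axis spanning at least 2.4 units and titled with the number of arrays on which the probe was above background. The SEMA3E 2 h points stand apart for Kcnq1ot1, the SEMA3E 8 h points for H19, the cytochalasin D points for Phlda2 and the control points for the third Plagl1 probe, while the treated groups overlap control for Igf2r.

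Across the 5 comparisons no member passed the test with limma. At SEMA3E 2 h against control, 0 of the 8 tested probes other than Kcnq1ot1 were called at an adjusted p under 0.05, beside 0% of all 24667 tested probes, and 0 had an unadjusted p under 0.05, beside 9.19% of all probes. At SEMA3E 8 h against control the counts were 0 called, beside 0.00405% of all probes (1 probe, of Catsperg2), and 2 at the unadjusted threshold, those of H19 and Plagl1 described above, beside 6.46%. Cytochalasin D against control gave 0 called beside 0%, and 1 unadjusted, Phlda2, beside 2.55%. Phlda2 had passed the filter through control alone. Cytochalasin D against SEMA3E 8 h gave 0 called beside 0%, and 2 unadjusted, Phlda2 and H19, beside 11.2%. SEMA3E 8 h against 2 h gave 0 called beside 0%, and 1 unadjusted, H19, beside 12.1%. With 2 arrays a group the standard error of a difference had a median of 0.36, and no adjusted p of a tested member was under 0.400.

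Groups of 2 often fail to overlap, for these genes as for others. Among the 8 tested probes other than Kcnq1ot1, the arrays of SEMA3E 2 h and control did not overlap for 1, the third Plagl1 probe, beside 39.8% of all tested probes. The counts were 4 of 8 for SEMA3E 8 h against control (37.2% of all), 2 of 8 for cytochalasin D against control (28.1%), 6 of 8 for cytochalasin D against SEMA3E 8 h (52.5%) and 5 of 8 for SEMA3E 8 h against 2 h (51.4%).

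The listed neighbours of Kcnq1ot1 on chromosome 7 lay on both sides of control in each comparison with control, and the list as a whole was not tested. Of 12 listed neighbours 10 were tested, Cdkn1c and Phlda2 among them, and at SEMA3E 2 h 6 lay above and 4 below control with a median difference of 0.05, beside a median of 0.06 over all 18073 tested genes. None was called, beside 0% of all genes, and 2 had an unadjusted p under 0.05, beside 8.62% of all genes. The highest was Dhcr7, an enzyme of cholesterol synthesis, at 0.56 ± 0.34, and the lowest was Ascl2, a transcription factor of the placenta. Ascl2 levels were -8.06 and -7.61 in control cells and -9.45 and -8.87 at SEMA3E 2 h, where it was not well above background, so no fold is given. It passed the filter through control alone. Nap1l4 and Osbpl5, farther out in the domain, differed from control by -1.03 ± 0.42 and -1.01 ± 0.48, and Slc22a18 by 0.54 ± 0.29; they are named after their values were seen. Osbpl5 was at -0.17 and -1.66 at SEMA3E 2 h against -0.12 and 0.31 in control cells, and its difference was -0.27 without the second SEMA3E 2 h array. That of Nap1l4 was -0.45 without the second control array. After 8 h of SEMA3E, 8 of the 10 lay above control (median 0.26, all genes 0.12) and none was called, beside 0.00553% of all genes, from Dhcr7 at 0.86 to Osbpl5 at -0.19, which was 0.024 without the second control array. After cytochalasin D 4 lay above and 6 below (median -0.03, all genes 0.03), from Tspan32 at 0.51 to Phlda2.

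Of 50 other imprinted genes 25 were tested, and again none was called. Of all genes, 0% were called at SEMA3E 2 h, 0.00553% at SEMA3E 8 h and 0% after cytochalasin D, each against control. At SEMA3E 2 h 4 of the 25 had an unadjusted p under 0.05 in limma, beside 8.62% of all genes. After 2 h of SEMA3E, 12 lay above and 13 below control, with a median of -0.03. The highest was Airn, the antisense non-coding RNA of the Igf2r cluster, at -3.81 and -4.50 in control cells, -2.05 and -2.79 at SEMA3E 2 h, -4.32 and -3.03 at SEMA3E 8 h, and -3.52 and -5.07 after cytochalasin D. Both SEMA3E 2 h arrays lay above the other 6, and the difference from control was 1.74 ± 0.64 (adjusted p = 0.529). The lowest was Ube3a, a ubiquitin ligase, at -1.33 ± 0.76, which rested on 1 array: its levels were -1.29 and -3.98 at SEMA3E 2 h and -1.28 and -1.34 in control cells. After 8 h, 17 lay above and 8 below control (median 0.10), from Mirg, a non-coding RNA of the Meg3 cluster, at 1.30 ± 0.51 to Kcnk9 at -0.71 ± 0.49. Kcnk9 was above background on 1 of the 2 SEMA3E 8 h arrays, and without the second its difference was 0.012. It passed the filter through control alone. After cytochalasin D 13 lay above and 12 below (median 0.03), from Trappc9 at 0.59 ± 0.31 to Ddc. Counted against the lowest signal that is well above background, Ddc was 1.25-fold lower. It was above background on no cytochalasin D array and passed the filter through control alone, which favours levels below control elsewhere.

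The insulin-like growth factor axis, in which Igf2, Igf2r and Grb10 act, had 14 of 18 listed genes tested. Against control 0 were called, beside 0% of all genes at SEMA3E 2 h, 0.00553% at SEMA3E 8 h and 0% after cytochalasin D. At SEMA3E 2 h 0 of the 14 had an unadjusted p under 0.05 in limma, beside 8.62% of all genes. After 2 h of SEMA3E, 5 lay above and 9 below control (median -0.23). The highest was Foxo3, a transcription factor held back by insulin signalling, at 0.60 ± 0.31. The lowest was Igfbp4, a secreted binding protein, at -1.41 ± 0.67, with 1 of the 2 SEMA3E 2 h arrays above background. Without the second control array the difference of Igfbp4 was -0.66. After 8 h, 10 lay above and 4 below (median 0.19), from Igfbp6 at 0.79 to Pik3r1, the regulatory subunit of phosphoinositide 3-kinase, at -0.67. After cytochalasin D 9 lay above and 5 below (median 0.12), from Igf2bp2 at 0.90 to Pik3r1 at -0.50. Igf2bp2 levels were -4.74 and -3.49 in control cells and -3.28 and -3.15 after cytochalasin D.

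Genes that set or read imprints and silence chromatin were nearly all detected, with 27 of 28 tested. Against control 0 were called, beside 0% of all genes at SEMA3E 2 h, 0.00553% at SEMA3E 8 h and 0% after cytochalasin D. At SEMA3E 2 h 2 of the 27 had an unadjusted p under 0.05 in limma, beside 8.62% of all genes. After 2 h of SEMA3E, 10 lay above and 17 below control (median -0.10), from Cbx7, a Polycomb subunit, at 0.46 ± 0.39 to Dnmt3a, the DNA methyltransferase that lays down imprints in the germ line, at -1.11 ± 0.66. Dnmt3a read -1.29 and -3.53 with SEMA3E for 2 h against -1.29 and -1.32 in control cells, so its difference, like that of Ube3a, came from the second SEMA3E 2 h array. That array had 214 spots marked as outliers, against 6 to 24 on the others. After 8 h, 11 lay above and 16 below (median -0.13), from Zfp57, a zinc finger protein that protects imprints, at 1.22 ± 0.70 to Ehmt1 at -0.54 ± 0.33. Zfp57 was above background on 1 of the 2 control arrays and on both SEMA3E 8 h arrays. It thus passed the filter through the group in which it was highest. After cytochalasin D 20 lay above and 7 below (median 0.11), from Tet2, which oxidises methylcytosine, at 2.06 ± 0.80 to Zfp57, which was above background on neither cytochalasin D array and is given no fold. Tet2 was at -3.42 and -0.93 in control cells and -0.88 and 0.65 after cytochalasin D.

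Partners of Cdkn1c in the G1 phase of the cell cycle had 11 of 12 genes tested. Against control 0 were called, beside 0% of all genes at SEMA3E 2 h, 0.00553% at SEMA3E 8 h and 0% after cytochalasin D. At SEMA3E 2 h 0 of the 11 had an unadjusted p under 0.05 in limma, beside 8.62% of all genes. Cdkn1a, the inhibitor p21, was the highest of them with SEMA3E, at 1.03 ± 0.46 after 2 h and 1.19 ± 0.46 after 8 h. Its levels were -2.39 and -2.38 in control cells, -1.77 and -0.94 at SEMA3E 2 h, -0.64 and -1.75 at SEMA3E 8 h, and -2.21 and -2.80 after cytochalasin D. All 4 SEMA3E arrays thus lay above both control arrays, as did the first cytochalasin D array, and the adjusted p was 0.529 and 0.761. Over all tested probes, 39.8% at SEMA3E 2 h and 37.2% at SEMA3E 8 h had arrays that did not overlap control. The lowest were Cdk2 at SEMA3E 2 h (-0.85 ± 0.60) and cyclin D1, Ccnd1, at SEMA3E 8 h (-0.24 ± 0.32). Cdk2 was at -0.84 and 0.97 in control cells and -0.52 and -1.05 at SEMA3E 2 h, and without the second control array its difference was 0.051. That of Ccnd1 was 0.064 without the first SEMA3E 8 h array. After cytochalasin D the list ran from Cdk6 to Ccnd2, the latter at -0.31 ± 0.31. Cdk6 was above background on 3 arrays, both cytochalasin D arrays and 1 control array, and so passed the filter through the group in which it was highest. Its levels were -9.49 and -7.05 in control cells and -7.29 and -6.92 after cytochalasin D, and without the first control array the difference of 1.17 became -0.053. The counts above and below control were 5 and 6 at SEMA3E 2 h (median -0.17), 8 and 3 at SEMA3E 8 h (median 0.15) and 8 and 3 after cytochalasin D (median 0.12).

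Other long non-coding RNAs, of which 15 of 29 listed were tested, are set here beside all tested genes. At SEMA3E 2 h 11 lay above control and 4 below, where 54.9% of all genes lay above, with a median of 0.31 beside 0.06 over all genes. At SEMA3E 8 h 14 lay above and 1 below, where 63.4% of all genes lay above, with a median of 0.31 beside 0.12. After cytochalasin D 4 lay above and 11 below, where 53.4% of all genes lay above (median -0.13, all genes 0.03). None was called, beside 0% of all genes at SEMA3E 2 h, 0.00553% at SEMA3E 8 h and 0% after cytochalasin D. At SEMA3E 2 h 4 of the 15 had an unadjusted p under 0.05 in limma, beside 8.62% of all genes. The distance between the list and all genes was not tested. The highest at both SEMA3E times was Mir22hg, the host of miR-22, which was above background on 1 control array, 1 SEMA3E 2 h array and both SEMA3E 8 h arrays, and so passed the filter through the group in which it was highest. Its levels were -9.28 and -7.77 in control cells, -7.44 and -6.65 at SEMA3E 2 h, -7.74 and -5.87 at SEMA3E 8 h, and -8.83 and -9.03 after cytochalasin D, and no fold is given. The lowest were Snhg5 at 2 h (-0.97 ± 0.30) and Mir17hg at 8 h (-0.54 ± 0.32). The nuclear RNAs Neat1 and Malat1, named after their values were seen, differed from control by 1.41 ± 0.54 and 0.84 ± 0.30 at SEMA3E 2 h, with both adjusted p at 0.529. Malat1 was at -0.01 and 0.31 in control cells, 0.98 and 1.0 at SEMA3E 2 h, 0.41 and 0.91 at SEMA3E 8 h, and 0.63 and 1.0 after cytochalasin D, where it was the highest of the list at 0.67 ± 0.30 and Snhg12 the lowest at -0.62 ± 0.46.

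**Figure D4:**
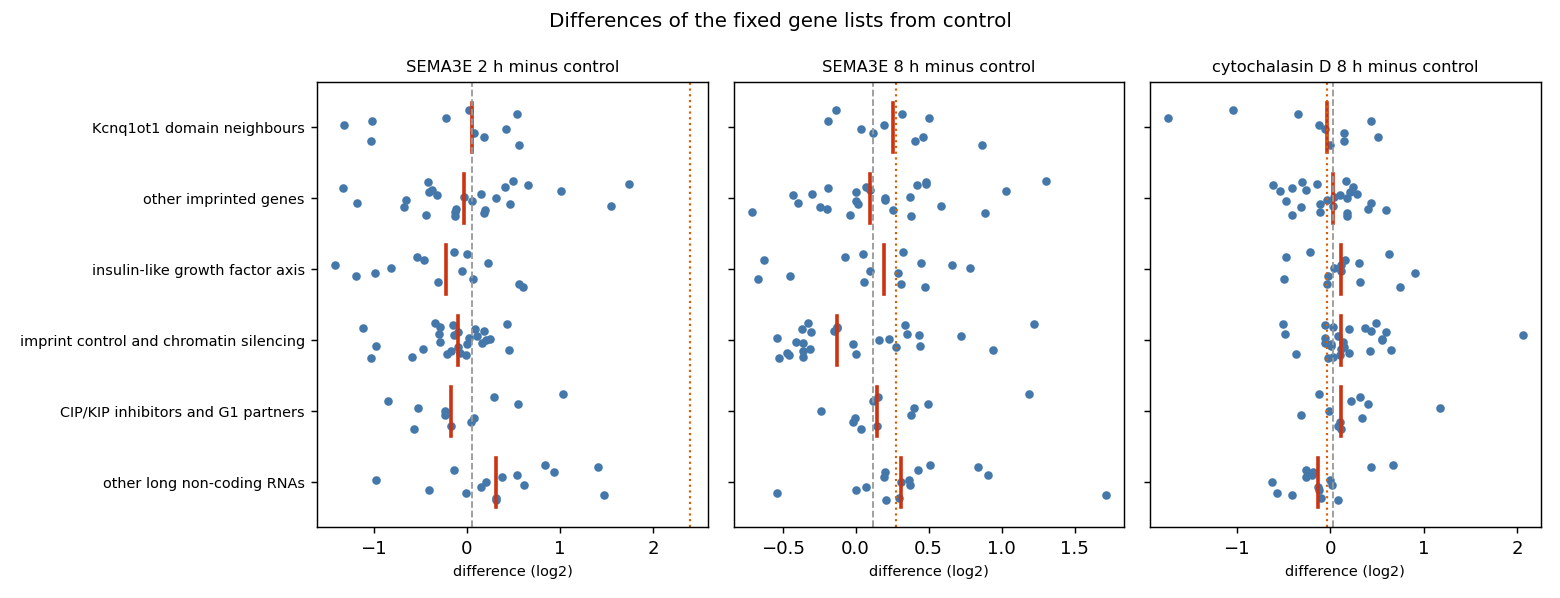
Difference from control in log2 for each tested gene (blue points) of the 6 lists in the 3 comparisons with control, with the list median (red bar), the median of all 18073 tested genes (dashed grey line) and Kcnq1ot1 (dotted orange line). At SEMA3E 2 h no gene of any list reaches the 2.4 of Kcnq1ot1, the gene chosen on that difference, and each list spreads to both sides of 0.

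Relative to all tested probes, the distance of Kcnq1ot1 from control at SEMA3E 2 h moved most with the background correction. The difference was 2.43 after quantile normalisation, 2.33 in the deposited table and 2.20 to 2.60 with 1 array left out. It was 1.78 with normexp, where the median of all tested probes was itself 0.44, so that Kcnq1ot1 stood 1.34 above the median against 2.36 in the reported setting. Scaling each array to its median over all probes gave 1.81, but moved the median of all tested probes to -0.56, so that the distance between them was again 2.36. The differences of Kcnq1ot1 at 8 h took either sign: for SEMA3E 8 h the value was 0.28 as reported, -0.03 after quantile normalisation and -0.88 with median scaling, where the median of all probes was -1.01. For cytochalasin D it was -0.04 as reported and 0.26 with normexp.

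**Figure D5:**
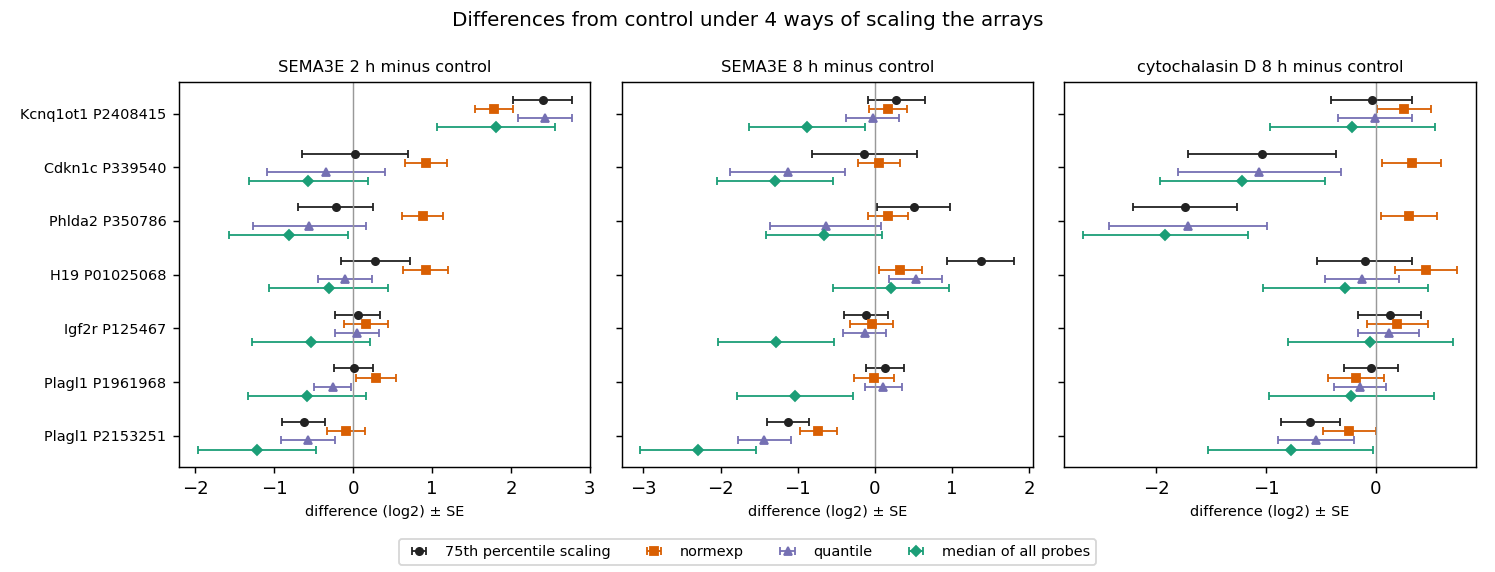
Difference from control in log2 with its SE for the brightest tested probe of each detected member and the third Plagl1 probe, under the reported 75th percentile scaling (black circles), normexp background correction (orange squares), quantile normalisation (purple triangles) and scaling to the median of all probes (green diamonds). Kcnq1ot1 at SEMA3E 2 h, the difference it was chosen on, stays between 1.78 and 2.43 under the 4 settings. Its 8 h differences, Cdkn1c, Phlda2, H19, Igf2r and the brightest Plagl1 probe each cross 0 in at least 1 comparison. The third Plagl1 probe lies below 0 in all 3, but it was added because its treated arrays lay below control in all 3.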

How the data were processed

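Total RNA from 8 B16 cultures was hybridised in 1 colour (Cy3), 1 array per sample. Per the file headers, Agilent Feature Extraction 11.5.1.1 read the scans the authors deposited, under build mm9, and the processed signal is a linear intensity with background subtracted and no scaling between arrays. The authors also deposited a table of intensity per gene name, used only as an alternative.

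Of 62976 spots, 1439 control spots were left out, outlier spots were set to missing, and repeated spots were averaged, giving 55698 probes. The log2 signal minus the 75th percentile of each array was fitted with group means over all 8 arrays in limma 3.58.1 (R 4.3.3), with 4 residual and 3.28 prior degrees of freedom. Of the probes passing the background filter 109 were lost to outlier marks, and 24667 were tested, two-sided, with Benjamini-Hochberg adjustment over all of them, and called at an adjusted p under 0.05. The fit was tested on simulated data. Intervals are at 95% and are not adjusted for multiple tests. Only 2 arrays per group limit the precision.

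Each list was described by its brightest tested probe per gene, and its highest and lowest gene in each comparison with control were named. All 10 members, the 6 lists and the markers were chosen with earlier results of these data known. Symbols were matched to RefSeq for 27673 probes, and probe sequences are those of the array files. The alternatives were normexp (offset 50), quantile normalisation, the 75th percentile or median over all probes, no filter, outliers kept, 1 probe per gene, a GC correction, the deposited table, a replicate block, and each array left out. The labels do not say whether the replicate numbers pair the samples, and a check could not settle it. Of the 5 genes most like Kcnq1ot1 over the arrays, 1 is not reported here.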

Additional observations from a re-analysis of the deposited data

Results flagged for a closer look

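The H19 probe shown last among the H19 sequences (GT_EA848_A_30_P01028007) was not tested, because it was well above background on 1 array only. Its signal was 29.0 on the second SEMA3E 8 h array and 1.56 to 5.69 on the other 7, and it was above background on no control array. The same array gave the highest signal of 11 of the 13 member probes that were never above background, and its negative control spots had a median raw signal of 51.3. What part these had in the H19 signal was not tested.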

How the results depend on the processing

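Kcnq1ot1 aside, no member probe was called in any comparison under any alternative except normexp at SEMA3E 2 h against control. That setting called 3: Cdkn1c at 0.93, H19 at 0.92 and Phlda2, turned to 0.88 (adjusted p 0.0440 each). In all it called 6048 of the 24667 tested probes, 5951 of them higher, with a median of 0.44. Kcnq1ot1, chosen on this comparison, was at 1.78 there and is given no test. At SEMA3E 2 h against control (0 probes as reported), scaling to the median over all probes called 63 and the deposited table gave 20, and leaving out 1 array gave 0 to 355, the 355 without the first SEMA3E 2 h array and 1 without the first control array. At SEMA3E 8 h against control (1), normexp, quantile normalisation and no filter on dim probes called 0, median scaling 3 and the table gave 13, and leaving out 1 array gave 0 to 1. Cytochalasin D against control (0) gave 4 with median scaling and 9 in the table. Cytochalasin D against SEMA3E 8 h (0) gave 2 with normexp, 9 with median scaling, 1 with 1 probe per gene and 13 in the table. SEMA3E 8 h against 2 h (0) gave 1 with normexp, 61 with median scaling and 20 in the table, and 0 to 398 with 1 array left out, the 398 without the first SEMA3E 2 h array. The cause of these moves was not tested.

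Correlations between the deviations of same-numbered replicates ran from -0.18 to 0.14 over 6 pairs of groups, of which 3 were negative. The labels do not say whether a replicate number marks a shared culture or day. With 2 arrays a group these correlations cannot settle it. With the replicate number as a block, the 1 probe called at SEMA3E 8 h against control became 0 and no other count changed.

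Over the other alternatives the members' 35 differences gave 340 values, of which 294 kept their sign and 46 changed it. The cause was not tested. These differences cover the brightest tested probe of each tested member and the third Plagl1 probe. That probe was added because its arrays lay below control in every comparison with control, and its sign never changed. The second bright and the remaining Plagl1 probe were not included. At SEMA3E 2 h against control, the turned values were Cdkn1c at -0.34, H19 at -0.10 and Plagl1 (brightest probe, here and below) at -0.26 with quantile normalisation. With median scaling they were Cdkn1c at -0.56, H19 at -0.31, Igf2r at -0.53 and Plagl1 at -0.58; with the GC correction Phlda2 at 0.022; in the table Cdkn1c at -0.042, H19 at -1.08, Igf2r at -0.0092 and Plagl1 at -0.24. At SEMA3E 8 h against control they were Cdkn1c at 0.052 and Plagl1 at -0.0093 with normexp, Kcnq1ot1 (no test) at -0.031 and Phlda2 at -0.64 with quantile normalisation, Plagl1 at -0.090 with the percentile over all probes, Kcnq1ot1 at -0.88, Phlda2 at -0.66 and Plagl1 at -1.03 with median scaling, and Plagl1 at -0.25 in the table. For cytochalasin D against control they were Kcnq1ot1 (no test) at 0.26, Cdkn1c at 0.33, Phlda2 at 0.30 and H19 at 0.45 with normexp, Igf2r at -0.051 with median scaling and Plagl1 at 0.0054 with the GC correction. For cytochalasin D against SEMA3E 8 h they were Kcnq1ot1 at 0.092, Cdkn1c at 0.27, Phlda2 at 0.13 and H19 at 0.12 with normexp, Kcnq1ot1 at 0.020 and Cdkn1c at 0.072 with quantile normalisation, Kcnq1ot1 at 0.67, Cdkn1c at 0.080 and Plagl1 at 0.81 with median scaling, and Plagl1 at 0.072 with the percentile over all probes and 0.21 in the table. For SEMA3E 8 h against 2 h they were Phlda2 at -0.71, H19 at -0.59 and Plagl1 at -0.30 with normexp, Phlda2 at -0.083 with quantile normalisation, and Plagl1 at -0.14 with the percentile over all probes, -0.45 with median scaling and -0.014 in the table.

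Leaving out 1 array at a time turned 12 of the same 35 differences at least once, none of them of the third Plagl1 probe. Their ranges were -0.75 to 0.81 for Cdkn1c, -0.61 to 0.17 for Phlda2, -0.056 to 0.62 for H19, -0.047 to 0.17 for Igf2r and -0.056 to 0.073 for Plagl1 at SEMA3E 2 h against control. At SEMA3E 8 h against control they were -0.62 to 0.35 for Cdkn1c and -0.26 to 0.026 for Igf2r. For cytochalasin D they were -0.47 to 0.40 for Kcnq1ot1, -0.49 to 0.29 for H19 and -0.11 to 0.36 for Igf2r against control, and -0.75 to 0.12 for Kcnq1ot1 against SEMA3E 8 h. The range of Cdkn1c between SEMA3E 8 h and 2 h was -0.94 to 0.62. Of the 36 highest and lowest list genes, 8 changed sign with 1 array left out, and 26 moved by over 1.5 times or changed sign. Signal over background limits Cdkn1c, Phlda2 and H19, which were near the background on most arrays.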
